A study of Mus musculus with 16 samples.

Results

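The genes described here act in the production, sensing and breakdown of adenosine and of the second messengers cAMP and cGMP. They are 10 genes taken by name: the ectoenzyme genes Entpd1 and Nt5e, the adenosine receptor gene Adora2a, the guanylyl cyclase subunit gene Gucy1a1, the phosphodiesterase genes Pde2a, Pde3b, Pde4b, Pde4d and Pde7a, and Rgs2, which encodes a brake on G proteins. Each was read from a probe set that carries 1 gene symbol, which gave 9 of the 10 genes, out of 22180 genes with such a probe set on the array. Adora2a was not analysed here. The genes were chosen by pathway with results of these arrays in view, and in part selected on the difference between untreated genotypes, where low values had been seen of Pde2a, Gucy1a1, Rgs2 and Nt5e in Atg7-/- cells. For that contrast the values and calls of these genes are therefore a description and not a test.

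The samples were 16 arrays of regulatory T cells (Treg cells) from C57BL/6 mice, 4 in each of 4 groups: Atg7-/- with rapamycin, Atg7+/- with rapamycin, Atg7-/- untreated and Atg7+/- untreated. Atg7-/- mice carried Atg7 fl/fl and Atg7+/- mice carried Atg7 +/fl. Both carried Foxp3-Cre, so the Atg7+/- controls also express the recombinase, which is driven from the Treg-specific Foxp3 gene, and keep 1 copy of Atg7 that it cannot delete. Atg7 encodes an enzyme needed to form autophagosomes. Treated mice had received 5 daily intraperitoneal doses of rapamycin, an inhibitor of the kinase mTOR, at 4 mg per kg, whereas the other mice are labelled untreated rather than vehicle-treated. Spleens and peripheral lymph nodes gave the cells, which were sorted as CD4+ and Foxp3-YFP+, and before RNA extraction all of them, in every group, spent 4 h on plate-bound anti-CD3 and anti-CD28. The age of the mice is not given in the labels, nor is it stated that each array of a group had its own mouse. A p-value here therefore measures only how these samples spread, and part of that spread may be technical.

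Extracellular ATP is cut by the ectoenzyme CD39, encoded by Entpd1, to AMP, and AMP is cut by CD73, encoded by Nt5e, to adenosine. Mouse Treg cells are known for carrying both enzymes, and adenosine acting on the receptor encoded by Adora2a raises cAMP in responding T cells through the stimulatory G protein Gs. cAMP activates protein kinase A, which phosphorylates the transcription factor CREB. Soluble guanylyl cyclase, a dimer of the subunits encoded by Gucy1a1 and Gucy1b1, makes cGMP when it binds nitric oxide. Phosphodiesterases end both signals: the enzymes encoded by Pde4b, Pde4d and Pde7a hydrolyse cAMP, that of Pde3b hydrolyses cAMP and is inhibited by cGMP, and that of Pde2a hydrolyses both messengers and is stimulated by cGMP. Rgs2 speeds the hydrolysis of GTP by G protein alpha subunits, mainly of the Gq class.

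The stretches before the transcription starts of Rgs2, Gucy1a1, Pde2a and Nt5e are shown because these are the 4 genes whose low values in Atg7-/- cells entered the choice of genes. Each is the 250 bases ahead of a RefSeq start site in the mouse build GRCm38.p6, written in the direction of transcription, and for Gucy1a1 and Pde2a, which have several annotated starts, the 5′-most. Capitals mark the core of the cAMP response element (the CRE core), TGACG or its reverse complement CGTCA. The windows lie at chr1:144004150-144004399 on the minus strand (Rgs2), chr3:82145651-82145900 on the minus strand (Gucy1a1), chr7:101421441-101421690 on the plus strand (Pde2a) and chr9:88327359-88327608 on the plus strand (Nt5e).
Rgs2: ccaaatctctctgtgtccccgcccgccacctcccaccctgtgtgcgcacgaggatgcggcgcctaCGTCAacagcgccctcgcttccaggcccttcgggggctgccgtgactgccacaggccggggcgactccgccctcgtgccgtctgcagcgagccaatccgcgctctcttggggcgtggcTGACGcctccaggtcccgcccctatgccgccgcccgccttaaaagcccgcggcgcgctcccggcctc
Gucy1a1: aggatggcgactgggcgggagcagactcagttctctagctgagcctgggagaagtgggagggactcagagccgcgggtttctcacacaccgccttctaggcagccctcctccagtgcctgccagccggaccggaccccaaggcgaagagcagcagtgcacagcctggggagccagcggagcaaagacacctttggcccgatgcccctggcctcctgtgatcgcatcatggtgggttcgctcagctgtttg
Pde2a: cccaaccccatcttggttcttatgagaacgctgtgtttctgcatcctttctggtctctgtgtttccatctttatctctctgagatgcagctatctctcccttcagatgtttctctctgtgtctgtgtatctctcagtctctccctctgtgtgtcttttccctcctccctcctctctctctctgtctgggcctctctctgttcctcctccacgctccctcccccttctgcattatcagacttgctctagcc
Nt5e: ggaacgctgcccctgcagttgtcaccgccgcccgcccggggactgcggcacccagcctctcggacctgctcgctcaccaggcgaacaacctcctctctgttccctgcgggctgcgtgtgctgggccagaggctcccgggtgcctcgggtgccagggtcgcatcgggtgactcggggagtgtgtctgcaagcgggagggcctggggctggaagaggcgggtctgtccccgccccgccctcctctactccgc

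Rgs2 held the CRE core at 2 positions, whose first letters lie 185 and 67 bases before the start. The Gucy1a1, Pde2a and Nt5e windows held none. Over the genes described here, 7 had entries in the RefSeq promoter table, with 16 windows, of which 4 held the CRE core: that of Rgs2, both of Entpd1 and 1 of Pde4b. It was in 17.8% of all 32851 windows of that table. The full cAMP response element, TGACGTCA, was in none of the 16 windows and in 1.55% of all windows, the forkhead core TGTTTAC in none and in 3.17%, and the AP-1 site TGAGTCA in none and in 4.46%, both strands being searched for each motif. The CRE core is contained in the full element. The Rgs2 and Nt5e windows were 72.4% and 72.0% G and C, with 30 and 21 CpG dinucleotides, the Gucy1a1 window 64.0% with 12, and the 5′-most Pde2a window 50.8% with 2, beside medians of 52.4% and 6 over all windows.

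The values are log2 signals per probe set. Signals of different probe sets are not on a common scale, so levels were compared between groups within a probe set and not between genes. Of the 22180 genes, 16760 passed a filter that asks for a highest group mean above 3.549, the 30th percentile of all values, and all 9 measured genes passed it, each with every group mean above it. Pde4d lay nearest to it, with group means of 3.68 to 3.92. Array medians over all probe sets ran from 4.41 to 4.63. Replicate 3 of rapamycin Atg7-/- cells had the lowest median and a score of -29.8 on the second principal component, where the other 3 arrays of that group had -12.9 to -7.57. Results of these genes that rest on that array are given with and without it. All 8 T cell and Treg markers examined, among them Cd3e, Cd4, Foxp3 and Il2ra, passed the filter, and their summed linear signal overlapped between all 4 groups except that rapamycin Atg7-/- arrays (14331 to 14755) lay below rapamycin Atg7+/- arrays (14821 to 15809) and untreated Atg7+/- arrays (14970 to 15949). Atg7 was read by 1 probe set, with a log2 difference between Atg7-/- and Atg7+/- cells of -0.28 without rapamycin and -0.30 with it (limma adjusted p = 0.299 and 0.232). Without rapamycin Atg7-/- replicate 3 the Atg7 difference under rapamycin was -0.15 (limma adjusted p = 0.575). The labels do not give the deleted part of the gene, so this probe set checks nothing about the genotypes.

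Between untreated cells, 5 of the 9 genes were lower in Atg7-/- than in Atg7+/- cells past the threshold used throughout, a limma adjusted p under 0.05 over all 16760 genes. These were Nt5e, Gucy1a1, Pde2a, Pde7a and Rgs2. The background was 3.14% of genes called in either direction and 1.39% called lower, but since low values in this contrast helped to choose the genes, nothing is read from the count. Pde2a, Gucy1a1 and Rgs2 showed the widest gaps, 1.99-fold to 2.15-fold lower in Atg7-/- cells, and Nt5e and Pde7a were 1.59-fold and 1.58-fold lower. Entpd1, Pde3b and Pde4d overlapped between the genotypes. Such bulk samples cannot tell fewer cells of a type from less RNA per cell.

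Nt5e, which makes the enzyme of the last step to adenosine, had log2 signals of 8.51, 9.04, 8.93 and 8.55 on the 4 untreated Atg7-/- arrays and 9.46, 9.44, 9.56 and 9.26 on the 4 untreated Atg7+/- arrays. Every Atg7-/- array lay below every Atg7+/- array, and 2 of the Atg7-/- arrays lay well below the other 2. The log2 difference was -0.67 (SE 0.121), a 1.59-fold lower signal. Entpd1, which makes the enzyme of the step before, ran the other way by 0.27 (SE 0.151), at 5.95 to 6.38 in Atg7-/- cells and 5.60 to 6.17 in Atg7+/- cells, ranges that overlap.

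Gucy1a1, the alpha subunit gene of the nitric oxide receptor, had 4.86, 5.43, 5.17 and 4.49 in untreated Atg7-/- cells and 6.48, 5.93, 6.32 and 5.64 in untreated Atg7+/- cells. The groups did not overlap, although both were widely spread. The difference was -1.10 (SE 0.215), a 2.15-fold lower signal. The gene of its partner subunit, Gucy1b1, named here after its values were seen, had a difference of -0.16 (SE 0.138, limma adjusted p = 0.591), with means of 5.03 in Atg7-/- cells and 5.20 in Atg7+/- cells.

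Pde2a, the phosphodiesterase gene whose enzyme is stimulated by cGMP, had 6.25, 6.42, 6.41 and 6.46 in untreated Atg7-/- cells, against 7.49, 7.51, 7.56 and 7.39 in untreated Atg7+/- cells. Both groups were tight, and the gap between them was several times the spread within either. The log2 difference was -1.10 (SE 0.162), a 2.15-fold lower signal and rank 5 from the bottom of 16760 genes. Pde7a, for a phosphodiesterase with high affinity for cAMP, had 6.69, 6.95, 6.99 and 6.88 in Atg7-/- cells and 7.563, 7.530, 7.499 and 7.559 in Atg7+/- cells, again without overlap (difference -0.66, SE 0.0842). A second Pde7a probe set gave a smaller difference, -0.27, also without overlap. Pde4b was lower without overlap too, at 5.19 to 5.55 in Atg7-/- cells and 5.66 to 5.84 in Atg7+/- cells (difference -0.40, SE 0.112). Pde3b (0.23, SE 0.181) and Pde4d (-0.06, SE 0.0873) overlapped.

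Rgs2 had 9.15, 9.23, 9.36 and 9.72 in untreated Atg7-/- cells and 10.37, 10.47, 10.40 and 10.19 in untreated Atg7+/- cells. The groups did not overlap, and the difference was -0.99 (SE 0.253), a 1.99-fold lower signal. The call of Rgs2, a description only, had a limma adjusted p of 0.0397. It was lost in 10 of 25 alternatives, with limma adjusted p up to 0.109. A second Rgs2 probe set gave -1.19, also without overlap. In all, 6 of the 9 genes had no overlap and were lower in Atg7-/- cells, where 5.97% of all genes tested did. These values helped to choose the genes, so nothing is read from this count either.

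**Figure D1:**
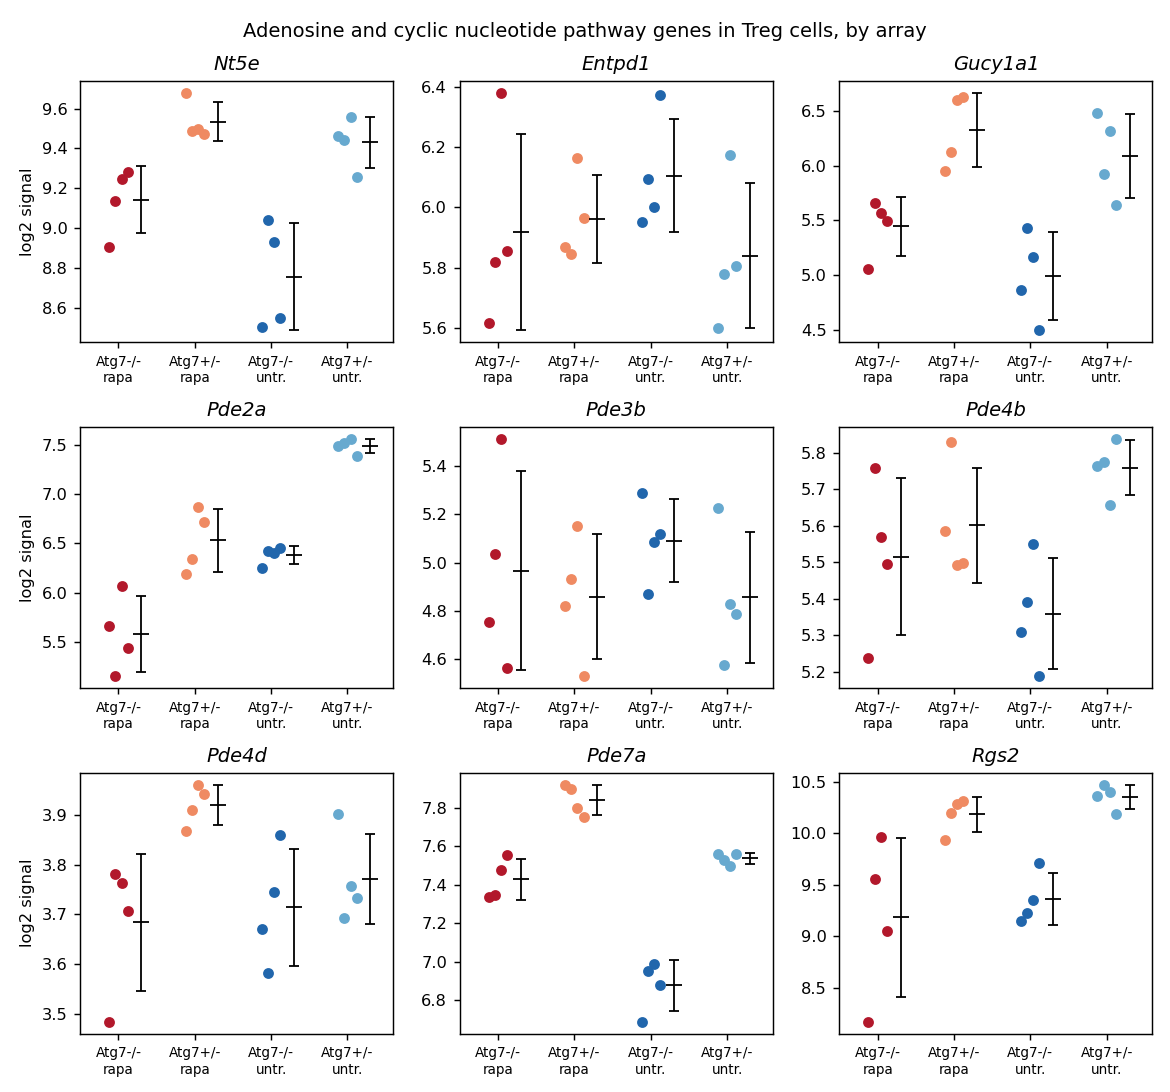
Log2 signal (vertical axis, 1 scale per gene) of the 9 measured genes on each of the 16 arrays, with 4 points per group in replicate order and, to their right, the group mean with its SD (n = 4). Pde2a was lowest in rapamycin Atg7-/- cells (5.16 to 6.06) and highest in untreated Atg7+/- cells (7.39 to 7.56), while Pde7a was lowest in untreated Atg7-/- cells (6.69 to 6.99) and highest in rapamycin Atg7+/- cells (7.75 to 7.92).

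Whether the genotype difference was also present in mice given rapamycin was read from the other 8 arrays, which share none with the untreated comparison. Pde2a, Pde7a, Gucy1a1 and Rgs2 fell in Atg7-/- cells and none of the 9 genes rose, against a background of 3.24% of genes called in either direction, 1.91% called higher and 1.33% called lower. Values of this comparison may also have been in view when the genes were picked, so the count is not independent support. It also depended on the fit: 1 of the 9 genes was called after each array was centred on its median, 1 without rapamycin Atg7+/- replicate 2, and none by limma in a fit to these 8 arrays alone, where 20 genes in all were called and 6 of the 9 had an unadjusted p under 0.05. It was 2 without rapamycin Atg7+/- replicate 3 or 4 or rapamycin Atg7-/- replicate 4, and 3 without rapamycin Atg7-/- replicate 3. The median difference of the 9 genes was -0.39, beside 0.0166 for all genes tested.

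Pde2a had 5.66, 5.16, 6.06 and 5.43 in rapamycin Atg7-/- cells and 6.19, 6.35, 6.87 and 6.72 in rapamycin Atg7+/- cells. The groups did not overlap, but both were wider than without rapamycin, and replicate 3 was the highest array in each. Pde2a fell by 0.95 on the log2 scale (SE 0.162, limma adjusted p = 0.00632), or 1.94-fold, which was rank 20 from the bottom of all genes tested. Without rapamycin Atg7-/- replicate 3 the difference was -1.11 (limma adjusted p = 0.000948), and in the fit to the 8 arrays alone its adjusted p was 0.0764.

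Pde7a had 7.34, 7.35, 7.48 and 7.56 in rapamycin Atg7-/- cells and 7.92, 7.90, 7.80 and 7.75 in rapamycin Atg7+/- cells. No Atg7-/- array reached the lowest Atg7+/- array. Pde7a fell by 0.41 (SE 0.0842, limma adjusted p = 0.0151), or 1.33-fold, and its second probe set gave -0.46 without overlap. Without rapamycin Atg7+/- replicate 2 the limma adjusted p of Pde7a was 0.0693, and without rapamycin Atg7-/- replicate 3 the difference was -0.43 (limma adjusted p = 0.0269). Of the other phosphodiesterase genes, Pde4d had 3.48 to 3.78 in Atg7-/- cells and 3.87 to 3.96 in Atg7+/- cells, without overlap but close to the filter on dim genes (difference -0.24, SE 0.0873, limma adjusted p = 0.145). Pde4b and Pde3b overlapped between the genotypes, with differences of -0.09 and 0.11 (limma adjusted p = 0.756 and 0.824). Without rapamycin Atg7-/- replicate 3 the differences of Pde4d, Pde4b and Pde3b were -0.26, -0.10 and -0.07, none called. Pde4b thus had no overlap between genotypes without rapamycin and overlapped with it, and the difference between those contrasts was 0.31 (95% interval -0.02 to 0.65, limma adjusted p = 0.797).

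Gucy1a1 had 5.06, 5.66, 5.57 and 5.50 in rapamycin Atg7-/- cells and 5.949, 6.127, 6.598 and 6.630 in rapamycin Atg7+/- cells. The groups did not overlap, and replicate 1 was the lowest of the Atg7-/- arrays. Gucy1a1 fell by 0.88 (SE 0.215, limma adjusted p = 0.0339), or 1.84-fold. The call was lost in 9 of 25 alternatives, with adjusted p from 0.0217 to 0.0835 over all of them. It was lost without rapamycin Atg7-/- replicate 1, 3 or 4 (adjusted p = 0.0727, 0.0566 and 0.0671) and without rapamycin Atg7+/- replicate 2, 3 or 4 (0.0812, 0.0667 and 0.0835).

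Rgs2 had 8.17, 9.56, 9.96 and 9.05 in rapamycin Atg7-/- cells and 9.94, 10.20, 10.29 and 10.31 in rapamycin Atg7+/- cells. Replicate 3 of the Atg7-/- group reached into the Atg7+/- range and replicate 1 lay far below the others, so the Atg7-/- SD was 0.773 against 0.172 in Atg7+/- cells. Rgs2 fell by 1.00 (SE 0.253, limma adjusted p = 0.0385). Without replicate 1 the difference was -0.66 (limma adjusted p = 0.0495), and without replicate 3 it was -1.26 (limma adjusted p = 0.0114). The call was lost without rapamycin Atg7-/- replicate 4 (0.0927), without each rapamycin Atg7+/- replicate in turn (0.0618, 0.123, 0.0642 and 0.082), and, through the shared estimate of spread, without untreated Atg7-/- replicate 3 or untreated Atg7+/- replicate 1 (0.0508 each). The second Rgs2 probe set had no overlap, with a difference of -1.18.

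The ectoenzyme genes did not pass in rapamycin-treated cells. Nt5e had 8.91, 9.14, 9.25 and 9.28 in rapamycin Atg7-/- cells and 9.68, 9.49, 9.50 and 9.47 in rapamycin Atg7+/- cells. All 4 Atg7-/- arrays lay below all 4 Atg7+/- arrays, but the difference, -0.39 (SE 0.121, 95% interval -0.64 to -0.13), had a limma adjusted p of 0.0844. Entpd1 had a difference of -0.04 (95% interval -0.36 to 0.27, limma adjusted p = 0.928), with 5.61 to 6.38 in Atg7-/- cells and 5.85 to 6.17 in Atg7+/- cells. Without rapamycin Atg7-/- replicate 3 the differences were -0.42 for Nt5e (limma adjusted p = 0.114) and -0.20 for Entpd1 (limma adjusted p = 0.536). Altogether 5 of the 9 genes were lower in Atg7-/- cells without overlap, where 3.76% of all genes tested were, and none was higher without overlap, where 6.01% were.

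**Figure D2:**
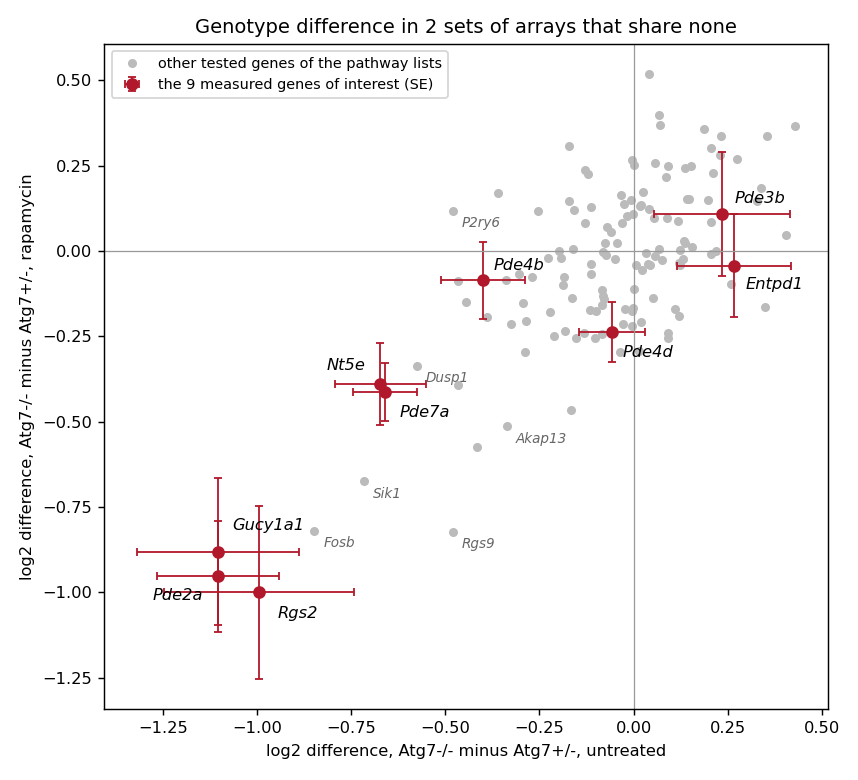
Log2 difference between Atg7-/- and Atg7+/- cells for each gene without rapamycin (horizontal axis) and with it (vertical axis), for the 9 measured genes (red, with SE bars from limma) and the 128 other tested genes of the pathway lists (grey). Pde2a, Gucy1a1 and Rgs2 lie at the lower left, at -1.10, -1.10 and -0.99 without rapamycin and -0.95, -0.88 and -0.9999 with it, and Entpd1 and Pde3b lie to the right of 0 without rapamycin, at 0.27 and 0.23.

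Pde2a, Pde7a, Gucy1a1 and Rgs2 were among 92 genes, 0.549% of those tested, that were called lower in Atg7-/- cells both without and with rapamycin, the first of these contrasts having helped to choose them. Foxp3, the transcription factor of Treg cells, was lower by 0.40 in untreated Atg7-/- cells (limma adjusted p = 0.0355, a call lost without 7 of the 8 untreated arrays one at a time). Under rapamycin its difference was -0.35 (limma adjusted p = 0.0662), and its groups overlapped in neither comparison. The T cell and Treg markers did not move with it as a set. Cd3d was called higher in Atg7-/- cells under rapamycin (mean 10.42 against 10.08). In untreated Atg7-/- cells only Foxp3 and Tnfrsf18 of that list had lower means than in untreated Atg7+/- cells. Among markers of other cell types, the summed linear signal of the neutrophil list was 175.5 to 224.2 in untreated Atg7-/- cells and 92.5 to 172.2 in untreated Atg7+/- cells. Under rapamycin it was 91.2 to 373.4 in Atg7-/- cells and 86.7 to 147.9 in Atg7+/- cells, with S100a8 and S100a9 not called in either comparison and Camp below the filter. The endothelial sum was higher in untreated Atg7-/- cells (308.1 to 383.6 against 233.9 to 247.8) through Pecam1, which T cells also express, while Kdr, Tek and Emcn were below the filter in all groups. In untreated Atg7-/- against untreated Atg7+/- cells the macrophage sum was 275.4 to 315.3 against 248 to 289.4, with Itgam below the filter, and that of CD8 T and NK cells was 217.7 to 271.9 against 201.2 to 212. The B cell, plasma cell, platelet, erythroid and stromal sums overlapped between the untreated genotypes, and the dendritic cell sum was lower in Atg7-/- cells (126 to 141 against 145.1 to 158). In that comparison Prdm1 of the plasma cell list was called higher and Zbtb46 of the dendritic cell list lower. Under rapamycin the plasma cell sum (2539 to 2609 in Atg7-/- cells against 2228 to 2339 in Atg7+/- cells) and that of CD8 T and NK cells (173.7 to 279.6 against 158.7 to 172.1, with Cd8b1 called higher) did not overlap, and the sums of the other cell types did. Irf4 was the brightest gene of the plasma cell list, with mean log2 signals of 11.23 and 11.05 in those groups. Prdm1 had 6.81 and 6.66, and Jchain, Sdc1 and Mzb1 had 3.63 to 4.45. The part of Foxp3 or of these markers in the differences above was not tested.

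Rapamycin itself was read by setting treated against untreated cells within each genotype, and these contrasts called many genes. In Atg7-/- cells 3 of the 9 genes were called, Pde7a and Nt5e higher and Pde2a lower, against a background of 20.0% (8.83% higher, 11.1% lower). In Atg7+/- cells 2 were called, Pde7a higher and Pde2a lower, against 14.1% (6.03% higher, 8.11% lower). Without overlap between arrays, 1 gene was higher and 1 lower in each genotype, where 8.76% and 11.6% of all genes were in Atg7-/- cells and 9.64% and 13.1% in Atg7+/- cells. With 9 genes these counts say little beside such backgrounds, so the values of single genes are given. The untreated arrays are the reference of both contrasts, and their values helped to choose the genes. Calls and p-values of these genes here are therefore not independent of that choice. The controls are labelled untreated, so the drug and its injection cannot be told apart.

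Pde2a and Pde7a moved in opposite directions under rapamycin. For Pde2a in Atg7-/- cells, the rapamycin arrays lay at 5.16 to 6.06 and the untreated arrays at 6.25 to 6.46. The difference was -0.80 (SE 0.162, limma adjusted p = 0.00228), a 1.75-fold lower signal, and -0.97 without rapamycin replicate 3 (limma adjusted p = 0.000258). In Atg7+/- cells the rapamycin arrays lay at 6.19 to 6.87 and the untreated arrays at 7.39 to 7.56, with a fall of 0.96 (SE 0.162, limma adjusted p = 0.0011), or 1.94-fold. The groups overlapped in neither genotype, and the call held in every alternative tried. Pde7a rose by 0.55 in Atg7-/- cells (SE 0.0842, limma adjusted p = 0.000277), with arrays at 7.34 to 7.56 under rapamycin and 6.69 to 6.99 without it. Leaving out rapamycin replicate 3 gave 0.54 for Pde7a (limma adjusted p = 0.000743). In Atg7+/- cells it rose by 0.30 (SE 0.0842, limma adjusted p = 0.0223), with 7.751 to 7.918 under rapamycin and 7.499 to 7.563 without it. The groups did not overlap in either genotype. The call in Atg7+/- cells was lost without rapamycin replicate 1 or 2 (adjusted p = 0.0644 and 0.0641) or untreated replicate 2 or 3 (0.0525 and 0.0586). The second Pde7a probe set had differences of 0.11 with overlap in Atg7-/- cells and 0.30 without overlap in Atg7+/- cells, so the probe sets disagree on the size in Atg7-/- cells.

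Nt5e rose by 0.385 in Atg7-/- cells under rapamycin (SE 0.121, limma adjusted p = 0.033), although the arrays overlapped, at 8.91 to 9.28 with rapamycin and 8.51 to 9.04 without it. The call was lost in 6 of 25 alternatives, with adjusted p from 0.0126 to 0.112 over all of them: without rapamycin replicate 2, 3 or 4 (0.0608, 0.0697 and 0.0904), without untreated replicate 1 or 4 (0.112 and 0.0963), and in the fit to these 8 arrays alone. In Atg7+/- cells its difference was 0.10 (95% interval -0.15 to 0.36, limma adjusted p = 0.621). Gucy1a1 had differences of 0.46 (95% interval 0.01 to 0.91, limma adjusted p = 0.142) and 0.23 (95% interval -0.22 to 0.69, limma adjusted p = 0.51) in Atg7-/- and Atg7+/- cells. Rgs2 had -0.18 and -0.17 (limma adjusted p = 0.66 and 0.702). Entpd1, Pde3b, Pde4b and Pde4d had differences of -0.19 to 0.16 in both genotypes, none of them called. Without rapamycin replicate 3 the differences in Atg7-/- cells were -0.34 for Entpd1, -0.305 for Pde3b, 0.14 for Pde4b, -0.06 for Pde4d, 0.42 for Gucy1a1 and -0.44 for Rgs2, none called.

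Markers also moved with rapamycin. Of the T cell and Treg markers, Cd3e and Cd4 were called lower and Tnfrsf18 higher in both genotypes, and Ctla4 lower in Atg7-/- cells. Cd4 averaged 8.33 in rapamycin and 9.08 in untreated Atg7-/- cells, and 8.16 in rapamycin and 8.83 in untreated Atg7+/- cells. Pax5, a B cell gene, and Pecam1 were called lower in both genotypes. The endothelial sum was 172.4 to 261.8 in rapamycin and 308.1 to 383.6 in untreated Atg7-/- cells, and 164.5 to 196.8 in rapamycin and 233.9 to 247.8 in untreated Atg7+/- cells. The plasma cell sum was 2539 to 2609 in rapamycin and 2105 to 2521 in untreated Atg7-/- cells, and that of CD8 T and NK cells 158.7 to 172.1 in rapamycin and 201.2 to 212 in untreated Atg7+/- cells. Irf4, the brightest gene of the plasma cell list, averaged 11.23 in rapamycin and 11.02 in untreated Atg7-/- cells. In the other lists the sums overlapped. Further calls in Atg7-/- cells were Mzb1 higher (mean 4.40 in rapamycin and 4.08 in untreated cells), Prdm1 lower (6.81 and 7.71) and Mpo lower (4.24 and 4.64). Prdm1 thus went against the plasma cell sum. In Atg7+/- cells Flt3 was called higher (4.66 in rapamycin and 4.11 in untreated cells). The part of these markers in the rapamycin differences was not tested.

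**Figure D3:**
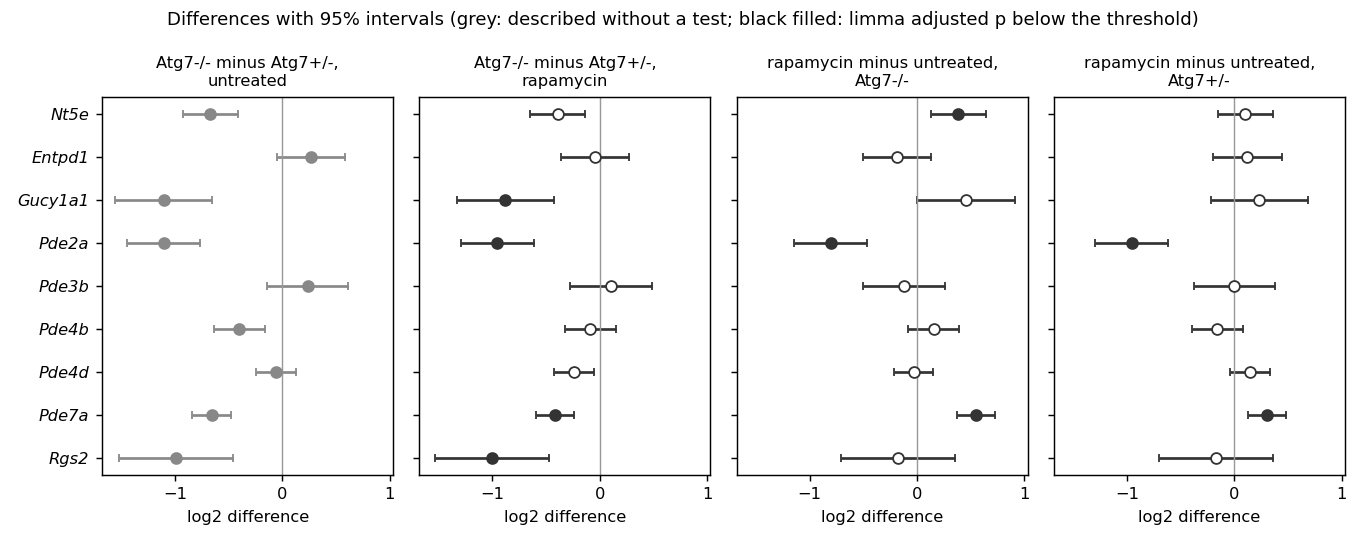
Log2 differences (horizontal axis) of the 9 measured genes with 95% intervals from limma in 4 comparisons, with the untreated genotype contrast in grey as a description and, in the other panels, black filled points for a limma adjusted p under 0.05. In both rapamycin panels Pde2a lies left of 0 (-0.80 and -0.96) and Pde7a right of it (0.55 and 0.30).

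The test of whether the rapamycin effect differed between genotypes, which equally asks whether the genotype effect differed with rapamycin, called none of the 9 genes and none of the 16760 genes by limma. At an unadjusted p under 0.05 there were 1052 genes, 6.28% of those tested, and none of the 9. Pde7a came nearest, with a rapamycin effect larger by 0.25 in Atg7-/- cells (95% interval -0.0036 to 0.50, unadjusted p = 0.053, limma adjusted p = 0.794). For Pde2a the difference was 0.15 (95% interval -0.33 to 0.63), for Gucy1a1 0.22 (-0.42 to 0.86), for Nt5e 0.28 (-0.08 to 0.64) and for Rgs2 -0.006 (-0.76 to 0.75). These intervals are wide beside the effects themselves, so equal effects in the genotypes are not shown. The untreated genotype contrast, which helped to choose the genes, is part of this difference. Its values for the 9 genes are therefore not independent of that choice. Without rapamycin Atg7-/- replicate 3 the difference was 0.23 for Pde7a, -0.0101 for Pde2a, 0.18 for Gucy1a1, 0.25 for Nt5e and -0.26 for Rgs2. For Pde4b it was 0.295, and none of these was called.

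The order of the 4 group means differed among the genes. Pde2a ran from rapamycin Atg7-/- (5.58) through untreated Atg7-/- (6.38) and rapamycin Atg7+/- (6.53) to untreated Atg7+/- cells (7.49), and the middle pair overlapped while the outer steps did not. Pde7a ran from untreated Atg7-/- (6.88) through rapamycin Atg7-/- (7.43) and untreated Atg7+/- (7.54) to rapamycin Atg7+/- cells (7.84), again with an overlapping middle pair. Nt5e and Gucy1a1 had the order of Pde7a, at 8.76, 9.14, 9.43 and 9.53 for Nt5e and 4.99, 5.44, 6.09 and 6.33 for Gucy1a1, with overlap between every pair of neighbours. Rgs2 fell into 2 levels, 9.19 and 9.36 in Atg7-/- cells with and without rapamycin and 10.19 and 10.36 in Atg7+/- cells, with no overlap between untreated Atg7-/- and rapamycin Atg7+/- cells. For Entpd1, Pde3b, Pde4b and Pde4d every pair of neighbours overlapped.

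The combination seen for Pde2a, lower in both genotype and both rapamycin comparisons, was called for 8 genes, 0.0477% of those tested. Lower calls under rapamycin in both genotypes were made for 4.98% of genes and higher calls for 4.09%. The 8 genes included Pdcd1, which encodes the inhibitory receptor PD-1, Abcb1a, a drug efflux transporter gene, Hip1r and Pcyt1a. The combination seen for Pde7a, lower in both genotype comparisons and higher in both rapamycin comparisons, was called for 21 genes, 0.125%, among them Tut4, Ccng2, Oga, Mtmr14 and Ccdc82. The comparisons share groups of arrays, so these sets describe the genes and are not a test.

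Likeness to other genes was measured as the Pearson correlation of log2 values over the 16 arrays, among 14322 genes, and describes arrays that share the 4 groups. Pde2a was most like Pdcd1 (r = 0.958), Hip1r (0.937) and Neo1 (0.924). Within groups, after each group's mean was removed, its correlation with Pdcd1 was 0.741. Pde7a was most like Tut4 (0.959), Ccdc82 (0.955) and Pnrc1 (0.951), Gucy1a1 like Cbarp (0.947), Irs2 (0.932) and Tecpr1 (0.919), and Nt5e like Parp4 (0.934), Snx13 (0.933) and Emsy (0.93). Rgs2 was most like Rnf125 (0.973), Nfil3 (0.942) and Coq8a (0.939), and within groups its correlation with Rnf125 was still 0.939. Over the 16 arrays the genes with no called difference had weaker partners: Entpd1 with Tstd3 (0.866), Pde4d with Fem1c (0.849), Pde4b with Gramd3 (0.841) and Pde3b with Ptgs2 (0.831). Within groups these 4 pairs had 0.886, 0.805, 0.803 and 0.805. Pde7a with Tut4 had 0.617 there, Nt5e with Parp4 0.760 and Gucy1a1 with Cbarp 0.831, so that order did not hold within groups. Among the 9 genes themselves the closest pairs were Nt5e with Pde7a (0.913) and Nt5e with Gucy1a1 (0.895), whereas Pde2a and Pde7a had 0.178. Within groups these pairs had 0.693, 0.591 and -0.0313, and the closest pair was Pde4d with Rgs2 (0.762).

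The wider pathway was followed in 8 lists that hold 175 genes, of which 161 had a probe set with 1 symbol and 137 passed the filter, 128 of them outside the 9 genes. Of these 128, limma called 5 between untreated genotypes, Abcc4 higher and Dusp1, Fosb, P2ry6 and Sik1 lower in Atg7-/- cells, beside the background of 3.14% of all genes. With rapamycin it called 5 as well, Slc29a3 higher and Akap13, Fosb, Rgs9 and Sik1 lower, beside 3.24% of all genes. The untreated count was 8 to 10 under 4 alternatives, 9 without rapamycin Atg7-/- replicate 3, 8 without its replicate 1, 2 without untreated Atg7+/- replicate 3 and 3 without untreated Atg7-/- replicate 1. The count under rapamycin was 0 by limma in the fit to those 8 arrays alone, where 25 had an unadjusted p under 0.05, 2 without rapamycin Atg7+/- replicate 2, 3 without rapamycin Atg7-/- replicate 4 and 9 without rapamycin Atg7-/- replicate 2. Rapamycin called 19 of the 128 in Atg7-/- cells and 22 in Atg7+/- cells, beside backgrounds of 20.0% and 14.1% of all genes. The difference of effects was called for none of them by limma, with 8 at an unadjusted p under 0.05. Outside the CREB target list, the median differences of the lists between genotypes lay between -0.11 (phosphodiesterases) and 0.08 (adenosine production and removal) without rapamycin and between -0.08 (cAMP effectors) and 0.13 (adenosine production and removal) with it. All 8 lists were drawn up with earlier results of these data known, so their counts describe the genes.

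CREB target genes, which cAMP signalling is known to switch on but which T cell receptor signals switch on too, had a median difference of -0.35 over 10 tested genes in untreated Atg7-/- cells and -0.32 under rapamycin, beside 0.0222 and 0.0166 for all genes. Without rapamycin 3 of the 10 fell and none rose, where 1.39% of all genes were called lower and 1.75% higher, and with rapamycin 2 fell and none rose, where 1.33% were called lower and 1.91% higher. This list was chosen with earlier results of these data known, so its medians and counts are not independent support. Sik1, a kinase gene that feeds back on the CREB coactivators, had 8.45 to 8.74 in untreated Atg7-/- cells and 9.23 to 9.43 in untreated Atg7+/- cells, a fall of 0.72 (SE 0.118, limma adjusted p = 0.00275). Under rapamycin it had 8.29 to 8.44 in Atg7-/- cells and 8.60 to 9.21 in Atg7+/- cells, a fall of 0.67 (limma adjusted p = 0.00681). Its groups overlapped in neither comparison. Fosb, an AP-1 subunit gene, fell by 0.85 (limma adjusted p = 0.0184) and by 0.82 (limma adjusted p = 0.0258), calls that leaving out single arrays ended in 3 and 4 cases (adjusted p up to 0.0647 and 0.112). Dusp1, a phosphatase of MAP kinases, fell by 0.575 without rapamycin (limma adjusted p = 0.00279) and had 8.45 to 8.64 in Atg7-/- cells and 8.74 to 9.06 in Atg7+/- cells with it, where it was not called. Nr4a1 was the 1 gene of the list that rapamycin called, lower by 0.32 in Atg7+/- cells (limma adjusted p = 0.0325, and up to 0.0845 with single arrays left out).

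The enzymes and transporters of adenosine other than Entpd1 and Nt5e held no called gene of 26 between untreated genotypes by limma. There 3 had an unadjusted p under 0.05, and 3.14% of all genes were called. Under rapamycin 1 was called, beside 3.24% of all genes. This was the lysosomal nucleoside transporter gene Slc29a3, 0.40 higher in Atg7-/- cells (limma adjusted p = 0.0364). Its limma adjusted p was 0.0819 without replicate 3 of rapamycin Atg7-/- cells, and 0.0513 to 0.123 over the 5 arrays whose removal ended the call. The mean of the Slc29a3 probe sets gave 0.0945 (limma adjusted p = 0.62), and the call was also lost with the replicate block (0.0545) and in the fit to those 8 arrays alone (0.132). Rapamycin called 7 of the 26 in Atg7-/- cells, 3 higher and 4 lower, and 4 in Atg7+/- cells, all lower, beside 20.0% and 14.1% of all genes. Slc29a2, an equilibrative nucleoside transporter gene, fell by 0.62 in Atg7-/- cells and 0.57 in Atg7+/- cells (limma adjusted p = 0.00182 and 0.00507). Ampd2, whose enzyme turns AMP into IMP, fell by 0.60 and 0.59 (limma adjusted p = 0.003 and 0.00505). Slc28a2, a sodium-driven nucleoside transporter gene, rose by 0.75 in Atg7-/- cells (limma adjusted p = 0.00191), with 6.37 to 7.12 under rapamycin and 5.70 to 6.16 without it. Entpd3, for a relative of CD39 on the cell surface, fell by 0.52 in Atg7-/- cells (limma adjusted p = 0.00744). Slc29a3 fell in Atg7+/- cells by 0.45 (limma adjusted p = 0.00617) and Entpd7, for an intracellular relative of CD39, by 0.58 (limma adjusted p = 0.0324, and up to 0.0972 with single arrays left out).

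Of 20 receptor genes for nucleotides, adenosine and other Gs ligands, 1 was called between genotypes. The share of all genes was 3.14% without rapamycin and 3.24% with it. The 1 gene was P2ry6, a UDP receptor gene, lower in untreated Atg7-/- cells (fell by 0.48, limma adjusted p = 0.0141, and 0.0508 without untreated Atg7+/- replicate 3). P2rx7, which encodes the ATP-gated channel through which extracellular nucleotides can kill T cells, fell under rapamycin in both genotypes. It had 5.61 to 5.82 in rapamycin and 6.28 to 6.42 in untreated Atg7-/- cells (fell by 0.63, limma adjusted p = 0.000463), and 5.75 to 6.25 in rapamycin and 6.35 to 6.62 in untreated Atg7+/- cells (fell by 0.58, limma adjusted p = 0.00147). The prostacyclin receptor gene Ptgir also fell in both, by 0.29 and 0.30, calls that leaving out single arrays ended in 6 cases each (limma adjusted p up to 0.105 and 0.0982). Adora3, another adenosine receptor gene, rose by 0.39 under rapamycin in Atg7+/- cells (limma adjusted p = 0.0135). Its untreated mean there, 3.51, lay below the filter of 3.549, and its rapamycin mean was 3.90. P2ry6 fell by 0.42 under rapamycin in Atg7+/- cells (limma adjusted p = 0.0108).

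Counts of other genes that make or break cyclic nucleotides are given beside the shares of all genes called. Between genotypes these were 3.14% without rapamycin and 3.24% with it, and for rapamycin 20.0% in Atg7-/- and 14.1% in Atg7+/- cells. Counts as small as these say little in lists of 12 or 13 genes. Of the 13 further phosphodiesterase genes limma called none between genotypes, with 2 at an unadjusted p under 0.05 without rapamycin and 1 with it, and none for rapamycin in Atg7-/- cells, with 1. Pde6d, whose product carries prenylated proteins, fell by 0.375 under rapamycin in Atg7+/- cells (limma adjusted p = 0.0206, and up to 0.0665 with single arrays left out). Of 12 guanylyl cyclase and cGMP kinase genes none was called in any comparison by limma, with 0 at an unadjusted p under 0.05 in both genotype comparisons and 2 for rapamycin in Atg7-/- cells and 1 in Atg7+/- cells. Of 12 G protein and adenylyl cyclase genes none was called between genotypes, with 1 at an unadjusted p under 0.05 in each. Under rapamycin Gnai1, for an inhibitory alpha subunit, rose by 0.51 in Atg7-/- cells (limma adjusted p = 0.0133). In Atg7+/- cells Gnal, for a stimulatory alpha subunit, rose by 0.33 (limma adjusted p = 0.0164, and up to 0.0606 over the alternatives), and Adcy7, an adenylyl cyclase gene, fell by 0.53 (limma adjusted p = 0.0248, and up to 0.0761 with single arrays left out).

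Downstream of cAMP, 1 of 25 effector genes was called in each genotype comparison, beside 3.14% of all genes without rapamycin and 3.24% with it. Abcc4, an efflux pump gene for cyclic nucleotides, was 0.33 higher in untreated Atg7-/- cells (limma adjusted p = 0.0466, a call lost in 17 of 25 alternatives). Akap13, an anchoring protein gene for protein kinase A, fell by 0.51 under rapamycin (limma adjusted p = 0.0151, and 0.0763 without rapamycin Atg7+/- replicate 2). Rapamycin called 7 of the 25 in each genotype, beside 20.0% of all genes in Atg7-/- and 14.1% in Atg7+/- cells. Akap9, another anchoring protein gene, rose by 0.62 in Atg7-/- cells and 0.68 in Atg7+/- cells (limma adjusted p = 0.00116 and 0.00102). Crtc2, a CREB coactivator gene, fell by 0.31 and 0.40 (limma adjusted p = 0.0124 and 0.00433), the call in Atg7-/- cells being lost in the fit to those 8 arrays alone. In Atg7-/- cells Akap8, for a nuclear anchoring protein, fell by 0.39 (limma adjusted p = 0.00153) and Crebbp, for a CREB coactivator, rose by 0.27 (limma adjusted p = 0.0224, and up to 0.0885 over the alternatives). The CREB coactivator gene Crtc1 fell in Atg7+/- cells by 0.45 (limma adjusted p = 0.0138) and Akap11 rose there by 0.35 (limma adjusted p = 0.0366, and up to 0.105 over the alternatives). Among 11 relatives of Rgs2, Rgs9 was the 1 gene called between genotypes, beside 3.14% of all genes without rapamycin and 3.24% with it. It fell by 0.82 under rapamycin, with 6.21 to 7.05 in Atg7-/- cells and 7.48 to 7.57 in Atg7+/- cells (limma adjusted p = 0.0103). Rgs9 also fell under rapamycin in Atg7-/- cells (0.71, limma adjusted p = 0.0039). Rgs5 rose there by 0.48 (limma adjusted p = 0.0165, and up to 0.062 over the alternatives). Its untreated mean of 3.11 lay below the filter of 3.549 and its rapamycin mean of 3.59 just above, so little is read from this rise. Rgs16, Rgs14 and Rgs10 fell in Atg7+/- cells by 0.41, 0.32 and 0.29, with limma adjusted p up to 0.0554, 0.0858 and 0.109 when single arrays were left out.

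**Figure D4:**
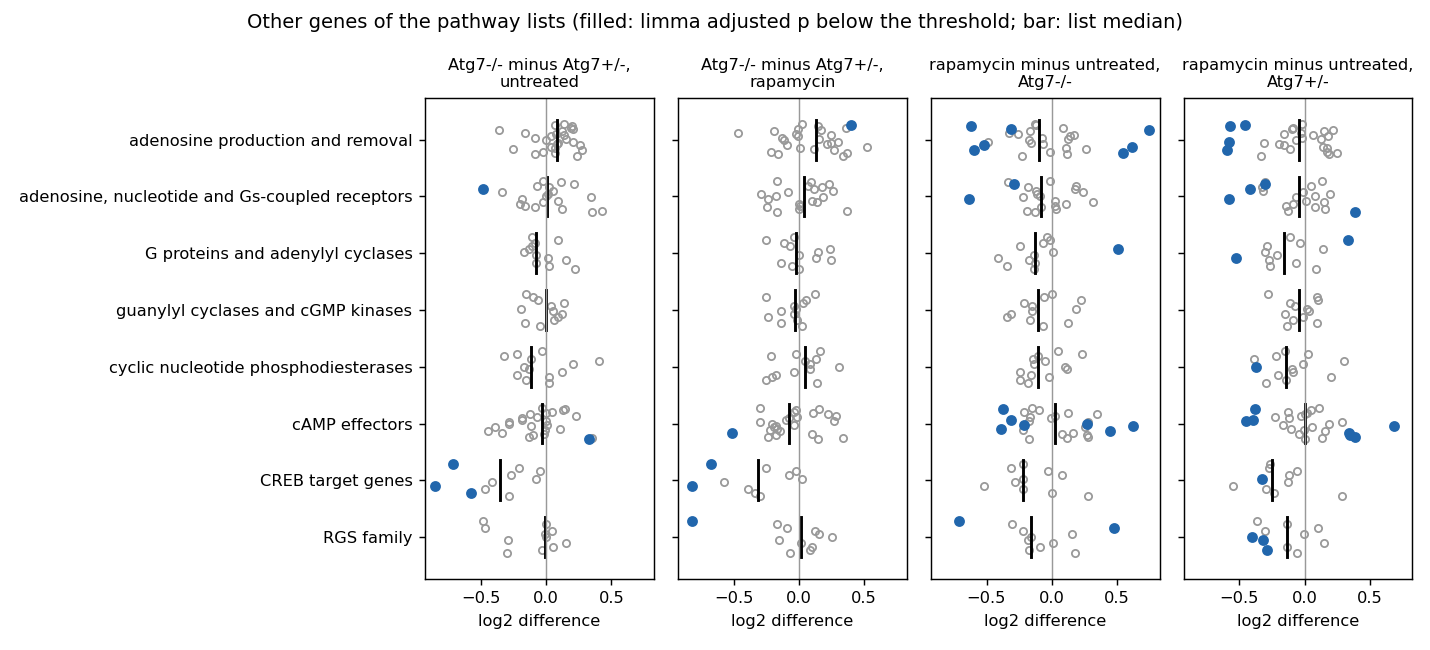
Log2 differences (horizontal axis) of the 128 other tested genes by pathway list (rows) in 4 comparisons (panels), with 1 circle per gene, filled where the limma adjusted p was under 0.05, and a black bar at the list's median. The CREB target list has the lowest median in both genotype panels (-0.35 and -0.32), and most filled circles lie in the rapamycin panels (19 in Atg7-/- and 22 in Atg7+/- cells).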

How the data were processed

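RNA of 16 samples was measured on an array with 41345 probe sets. The deposited values are log2 signals, made by the authors with RMA and Partek 6.6, per the submitters' processing notes, with settings and genome build not given in the sources used here. Base 2 was taken from the range of the values. Through the platform annotation 23521 probe sets carried 1 symbol, 1814 several and 16010 none; those with 1 stand for 22180 genes, and where a gene had several, the one with the highest mean was used. Genes whose highest group mean was at or below 3.549, the 30th percentile of all values, were left out. Group differences were fitted with limma 3.58.1 in R 4.3.3 on all 16 arrays without a block, with Benjamini-Hochberg adjustment over 16760 genes, a threshold of 0.05, and two-sided tests. The fit was tested on simulated data. The genes and lists were chosen with earlier results of these data known. Named in full are the 9 measured genes, of each pathway list and comparison up to 4 called genes with the smallest p (the rule also allows up to 2 where none was called, few of which the text describes), and for likeness the 3 genes with the highest correlation. The alternatives were quantile normalisation, median centring, the mean of a gene's probe sets, 2 other filters, other moderation, array weights, the replicate number as a block, a fit to the arrays compared, and leaving out each array. The number of arrays limits the precision. All value columns belonged to the 16 samples.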

Additional observations from a re-analysis of the deposited data

Results flagged for a closer look

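Nt5e in replicate 1 of rapamycin Atg7+/- cells, at 9.68, lay apart from the other 3 arrays of its group, which had 9.47 to 9.50. The gap to the nearest array was 0.88 of the group's range. Of 36 groups of 4 arrays examined in this way, over 9 genes, this was the 1 that stood out, and chance gives about 1 in 20.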

How the results depend on the processing

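Of 14 called values of the 9 genes, counted over 4 comparisons, 7 kept their call in every alternative run, 7 lost it in at least 1, and none changed sign. Of 31 values not called, which include the 9 of the difference of effects, 10 changed sign in some alternative. Median centring called 1 of the 9 genes between genotypes under rapamycin and 1 for rapamycin in Atg7+/- cells, and fitting only the arrays compared called none between genotypes under rapamycin. For other pathway genes without rapamycin the count between genotypes was 9 with quantile normalisation, 8 with the filter at the 50th percentile, 9 with trend and robust moderation and 10 with array weights. With rapamycin it was 8 with quantile normalisation and 0 with only the arrays compared, and for rapamycin in Atg7-/- cells it was 11 with only the arrays compared. Over all genes the untreated genotype count was 527 and became 318 with median centring and 974 with array weights. Under rapamycin it was 543 (320 higher, 223 lower) and became 350 (253 and 97) with median centring, 820 with the filter at the 50th percentile, 886 with trend and robust moderation and 20 with only the arrays compared, and quantile normalisation split it into 541 higher and 241 lower. For rapamycin in Atg7+/- cells the split of 1011 higher and 1359 lower became 667 and 1449 with median centring.

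Leaving out 1 array at a time gave 4 to 6 of the 9 genes between untreated genotypes, 1 to 4 between genotypes under rapamycin, 2 to 3 for rapamycin in Atg7-/- cells and 1 to 2 in Atg7+/- cells. The other pathway genes gave 2 to 9, 2 to 9, 13 to 27 and 11 to 25, and all genes 282 to 695, 95 to 790, 2513 to 3414, 1554 to 2785 and, for the difference of effects, 0 to 1. The signs that changed belonged to small differences. For Entpd1 between genotypes under rapamycin the value was 0.0426 with quantile normalisation, 0.0150 with median centring and -0.1984 to 0.0572 without single arrays. Pde3b for rapamycin in Atg7+/- cells gave -0.0629, -0.0412 and -0.0326 with quantile normalisation, median centring and array weights, and -0.10 to 0.13 without single arrays. In the same way Pde3b gave -0.0725 to 0.2429 between genotypes under rapamycin, -0.3050 to 0.0104 for rapamycin in Atg7-/- cells and -0.3072 to 0.0082 for the difference of effects. Pde4b between genotypes under rapamycin was 0.0089 with quantile normalisation and -0.1677 to 0.0061 without single arrays, and Pde4d for rapamycin in Atg7-/- cells -0.0745 to 0.0365. The difference of effects was 0.0552 with median centring and -0.26 to 0.33 without single arrays for Rgs2, -0.0101 to 0.2931 for Pde2a, -0.0493 to 0.1195 for Foxp3, and 0.0330 and -0.14 to 0.13 for Atg7. For rapamycin in Atg7-/- cells Rgs2 gave -0.44 to 0.16 and Atg7 -0.0103 to 0.2540. The cause was not tested. Whether replicate numbers pair the arrays cannot be settled from these values, because the ranges overlap. Deviations from group means correlated at -0.0829 to 0.358 for the same number (median 0.0230, 24 pairs). For different numbers they correlated at -0.303 to 0.236 (median -0.0093, 72 pairs). The value of 0.358 was between the rapamycin groups, and 7 of 16 arrays correlated best with their own number. With the replicate number as a block the counts were 5, 4, 3, 2 and 0 of the 9 genes over the 5 comparisons, 4, 5, 23, 24 and 0 other pathway genes, and 529, 592, 3491, 2492 and 0 of all genes.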
